A study of Catharanthus roseus with 3 samples.

Results

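Transcripts for 4 early iridoid genes and for the reductase that serves cytochrome P450 enzymes were followed across leaf, root and flower of *Catharanthus roseus*, the Madagascar periwinkle. They were chosen by transcript identifier, with earlier results of these data known, and are 5 of the 59220 assembled transcripts. These are GPPS (Cr_TC33950), G10H (Cr_TC57680), 10HGO (Cr_TC01194), IS (Cr_TC07184) and CPR (Cr_TC07063), and all 5 were listed above 0 in every tissue. Leaf, root and flower came from mature, field-grown plants of the variety Prabal with no treatment named, and each tissue was sequenced as 1 library, so 3 libraries were compared. How many plants went into a library is not given in the sources used here. No value therefore has a replicate error or a test behind it, and every comparison is between these libraries.

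*C. roseus* makes terpenoid indole alkaloids (TIAs), among them the anticancer compounds vinblastine and vincristine, from tryptamine and the iridoid secologanin. The iridoid route starts from geranyl diphosphate, which geranyl diphosphate synthase makes from the isoprenoid units of the plastidial MEP pathway. Geraniol synthase releases geraniol, G10H hydroxylates it, 10HGO oxidizes the product to a dialdehyde, and IS closes the iridoid ring by reduction. Later steps, among them LAMT and SLS, finish secologanin. In leaves, early iridoid genes such as G10H and IS are known to be expressed in internal phloem-associated parenchyma cells, and the last steps in the epidermis. Since whole tissues were used, fewer cells of a type and less RNA per cell cannot be told apart here.

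Levels were taken as RPKM (reads per kilobase of transcript, scaled for the mapped reads of the library), so they are per length. Ratios between genes also depend on how fully each assembled transcript, counted by its unique reads, stands for its gene. That was not checked, so such ratios are approximate. The values of a library summed to between 452743 and 471970 RPKM. Between 44675 and 48814 transcripts were above 0, with a median of 1.27 to 1.37 RPKM. Depth per transcript was not worked out, because lengths were not used here, so no counting interval is given. No list of tissue markers was used. Among the named genes, T16H and DAT belong to vindoline synthesis, which is known from aerial parts, and T19H is known from roots. T16H (Cr_TC35206) had 7.01 RPKM in leaf, 0.04 RPKM in root and 17.3 RPKM in flower, DAT (Cr_TC35622) had 6.85, 0.37 and 6.29 RPKM in the same tissues, and T19H (Cr_TC04217) had 0.01, 8.96 and 0 RPKM. In leaf, root and flower D4H had 63.2, 2.39 and 3.45 RPKM, and 16OMT (Cr_TC58091) had 20.2, 3.44 and 10.1 RPKM. NMT (Cr_TC06574) had 43.3, 6.29 and 16.6 RPKM. Each vindoline gene was lowest in root, but D4H in root lay within 2-fold of flower. These values go with the root label, while nothing here checks leaf against flower. Gene names are taken as those the study gave its identifiers. Its text pairs T16H, DAT and T19H with theirs, and its primer list does so for actin. Names of the 5 genes and of the other listed genes are not paired with identifiers in that text. Their pairings stand in its pictures or were taken over from earlier work on these data. Actin (Cr_TC35401), the internal control of the study's RT-PCR, had 1.17 RPKM in leaf, 70.7 RPKM in root and 55.1 RPKM in flower, and was not used for scaling.

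GPPS was chiefly a root transcript. It is named as geranyl diphosphate synthase, and the text of the study does not say which subunit the transcript encodes. Its level was 13.5 RPKM in leaf, 205 RPKM in root and 19.3 RPKM in flower. Root held 86.2% of the level summed over the 3 tissues. The root value was 10.6 times that of flower and 15.2 times that of leaf, whereas flower stood only 1.43 times above leaf. Among the 59220 transcripts GPPS ranked 7977 in leaf, 282 in root and 5597 in flower.

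G10H, geraniol 10-hydroxylase, is a cytochrome P450 enzyme and catalyzes the first oxidation of geraniol. It was highest in leaf, with 35.8 RPKM in leaf, 8.14 RPKM in root and 2.16 RPKM in flower. Leaf stood 4.40 times above root, and root 3.77 times above flower. Leaf held 77.7% of the summed level and flower 4.68%. Its rank was 2728 in leaf, 9939 in root and 19226 in flower.

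10HGO, 10-hydroxygeraniol oxidoreductase, was the lowest of the 5 genes in every tissue. It had 1.54 RPKM in leaf, 4.34 RPKM in root and 0.83 RPKM in flower. Root was 2.82 times leaf, and leaf 1.86 times flower. Even in root 76.0% of all transcripts had a lower value, and in flower 54.0% did. These levels are low, so a fold change with 1 RPKM added to both values understates the ratio.

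IS, iridoid synthase, followed the same order of tissues as G10H but was more unequal. Its level was 65.9 RPKM in leaf, 9.06 RPKM in root and 2.19 RPKM in flower. Leaf stood 7.27 times above root and 30.1 times above flower, the widest range among the 5 genes. Leaf held 85.4% of the summed level. IS was the most abundant of the 5 in leaf, at rank 1082, while its rank was 9268 in root and 19131 in flower.

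CPR, the NADPH-cytochrome P450 reductase, passes electrons from NADPH to P450 enzymes such as G10H and SLS, and to those of many other pathways. It was the most abundant of the 5 genes in root and in flower. Its level was 22.7 RPKM in leaf, 214 RPKM in root and 76.4 RPKM in flower, so that the order was the reverse of what G10H showed for leaf and flower. Root stood 2.81 times above flower, and flower 3.37 times above leaf. CPR ranked 4814 in leaf, 264 in root and 1039 in flower.

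**Figure D1:**
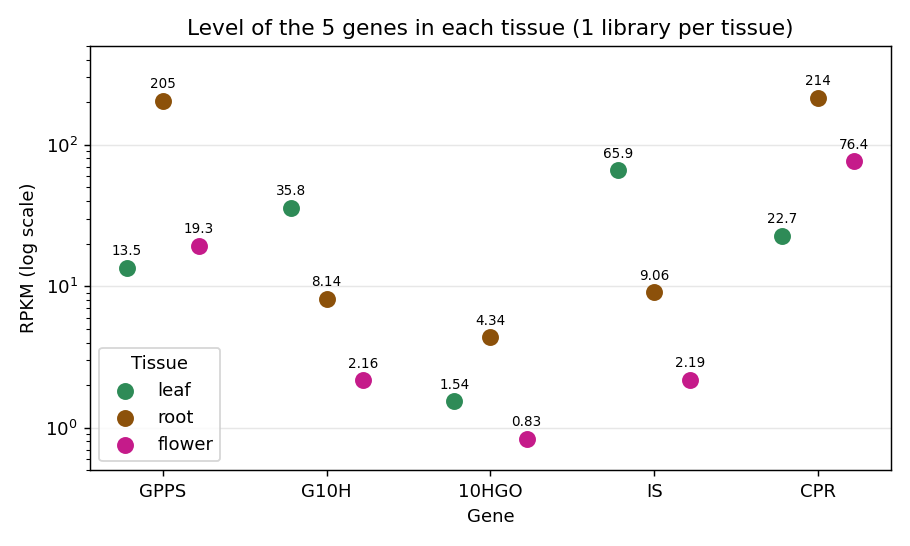
Level of each gene in RPKM (log scale) in leaf, root and flower, 1 library per tissue, with the value beside each point and no error bar because there are no replicates. G10H and IS were highest in leaf (35.8 and 65.9 RPKM), while GPPS, 10HGO and CPR were highest in root (205, 4.34 and 214 RPKM).

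Leaf was compared with flower to ask which of these steps were more abundant in a tissue known for alkaloid production. IS and G10H stood above flower in leaf, CPR stood below it, and GPPS and 10HGO lay within 2-fold. A transcript was called by size when the log2 ratio of (RPKM + 1) reached 1 in either direction, that is 2-fold, and the larger value was at least 1 RPKM. By this rule 2 of the 5 genes were higher in leaf, beside 17.2% of 29737 transcripts compared, and 1 was lower, beside 18.1%. IS had a log2 fold change of 4.39, and 90 of the transcripts compared lay further up. For G10H the log2 fold change was 3.54, with 219 transcripts further up. CPR stood at -1.71, lower than in flower, and 2522 transcripts (8.48%) lay further down. The values of GPPS, at -0.49, and 10HGO, at 0.47, were on either side of 0. The median of the 5 genes was 0.47, against 0.11 over all transcripts compared.

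In root against flower, all 5 genes were at least 2-fold higher. The share of 33360 transcripts compared that was called higher was 26.7%, and 18.2% were called lower. GPPS led with a log2 fold change of 3.34, and 529 transcripts (1.59%) lay further up. The other 4 genes were close together, with IS at 1.66, 10HGO at 1.545, G10H at 1.53 and CPR at 1.48. Each of these 4 had between 11.1% and 14.1% of the transcripts compared further up. The median of the 5 was 1.545, against -0.03 over all transcripts compared. The count rests on low values for 3 genes. IS, 10HGO and G10H were under 10 RPKM in both root and flower. With 10 RPKM added in place of 1 such genes cannot reach 2-fold, and only GPPS and CPR stayed called. Asking for a larger value of at least 10 RPKM took these 3 genes out of the comparison. GPPS and CPR, the 2 genes still compared, were both called higher, beside 20.8% of 11639 transcripts. Neither setting could therefore test the 3 genes under 10 RPKM.

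Leaf and root were then set against each other. The 5 genes divided, with G10H and IS higher in leaf and GPPS, CPR and 10HGO lower in leaf than in root. Of 34057 transcripts compared, 22.8% were called higher in leaf and 30.2% lower. IS had a log2 fold change of 2.73 and G10H of 2.01, with 1416 and 2682 transcripts further up. GPPS stood at -3.83 and CPR at -3.19, with 652 and 1174 transcripts further down. 10HGO lay near the line at -1.07. With 10 RPKM added to both values it stood at -0.31, within 2-fold as any gene under 10 RPKM must be. The median of the 5 was -1.07, against 0.07 over all transcripts compared. Leaf against flower and root against flower share the flower library, and each of the 3 libraries enters a pair of these comparisons, so they are not independent of each other.

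**Figure D2:**
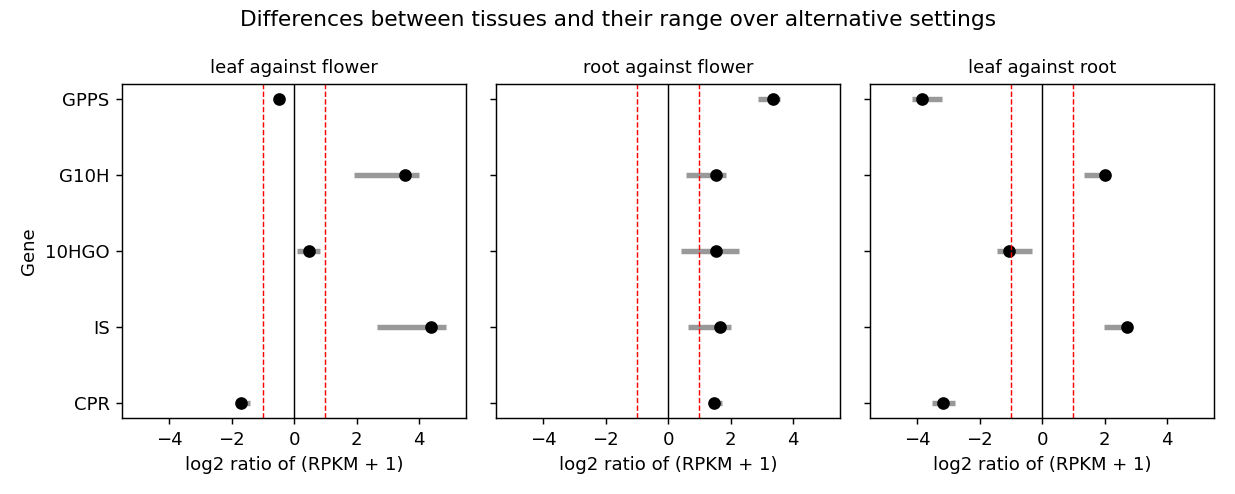
Log2 ratio of (RPKM + 1) for the 5 genes (rows) in each of the 3 comparisons, with the value as reported (black points), the range over the alternative settings (grey bars) and the 2-fold line on either side (red, dashed). All 5 genes lay right of the 2-fold line in root against flower, from 1.48 for CPR to 3.34 for GPPS. The grey bars of G10H, 10HGO and IS crossed it through the pseudocount of 10 RPKM, at which a gene under 10 RPKM cannot reach 2-fold.

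The order of the tissues fell into 3 kinds. G10H and IS ran leaf, root, flower from high to low, GPPS and CPR ran root, flower, leaf, and 10HGO ran root, leaf, flower. Among the 36900 transcripts that reached 1 RPKM in some tissue, 10.1% had the order of G10H and IS, 16.9% that of GPPS and CPR, and 9.31% that of 10HGO. Both neighbouring steps were at least 2-fold for G10H and IS, a form shared with 95 transcripts in all (0.257%), these genes included. For CPR both steps were at least 2-fold as well, as in 709 transcripts in all (1.92%). For GPPS the step from flower to leaf, and for 10HGO the step from leaf to flower, was within 2-fold. Whether neighbours in such an order differ beyond the spread between plants cannot be read from these 3 libraries. The study's replicated RT-PCR, which had primers for all of these genes but 10HGO, was not analysed here. For every gene selected for it, the study reports patterns similar to those in its RNA-seq data. Its internal control was actin, which had 1.17 RPKM in leaf, 70.7 RPKM in root and 55.1 RPKM in flower here. Whether that affects the RT-PCR patterns was not tested.

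**Figure D3:**
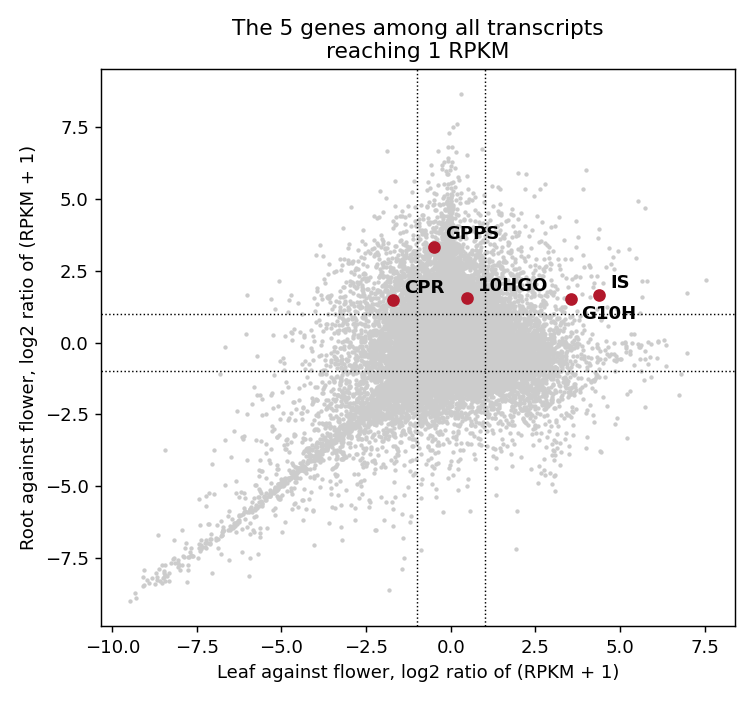
Log2 ratio of (RPKM + 1) of leaf against flower (x axis) and root against flower (y axis) for the 36900 transcripts reaching 1 RPKM in some tissue (grey), with the 5 genes in red and dotted lines at 2-fold. IS (4.39 in leaf, 1.66 in root) and G10H (3.54 and 1.53) stand to the upper right, while CPR (-1.71 and 1.48) stands to the upper left. Both axes share the flower library.

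The balance between the genes differed from tissue to tissue. In leaf IS made up 47.3% of the summed level of the 5 genes, G10H 25.7%, CPR 16.3%, GPPS 9.68% and 10HGO 1.1%. In root GPPS and CPR together held nearly everything, with 46.5% and 48.6%, and IS and G10H had 2.05% and 1.84%. In flower CPR alone held 75.7% and GPPS 19.2%. IS had 1.84 RPKM per RPKM of G10H in leaf, 1.11 in root and 1.01 in flower, so the pair was close to equal outside leaf. IS exceeded 10HGO, the step before it, 42.8 times in leaf, 2.09 times in root and 2.64 times in flower.

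The level of the P450 enzyme G10H relative to its reductase was set out next. G10H had 1.58 RPKM per RPKM of CPR in leaf, 0.0380 in root and 0.0283 in flower. CPR thus stood 26.3 times above G10H in root and 35.4 times in flower, whereas in leaf G10H was the higher. CPR also serves other P450 enzymes, so the other listed P450 genes of the pathway were added: SLS (Cr_TC01142), secologanin synthase, T16H, tabersonine 16-hydroxylase, and T19H, tabersonine 19-hydroxylase. The 4 P450 genes summed to 131 RPKM in leaf, 594 RPKM in root and 32.7 RPKM in flower, which is 5.76, 2.77 and 0.428 per RPKM of CPR. SLS made up 67.2% of that sum in leaf, 97.1% in root and 40.6% in flower. Without SLS the ratios were 1.89 in leaf, 0.0800 in root and 0.255 in flower, so that root and flower changed places. P450 genes outside this list were not counted.

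**Figure D4:**
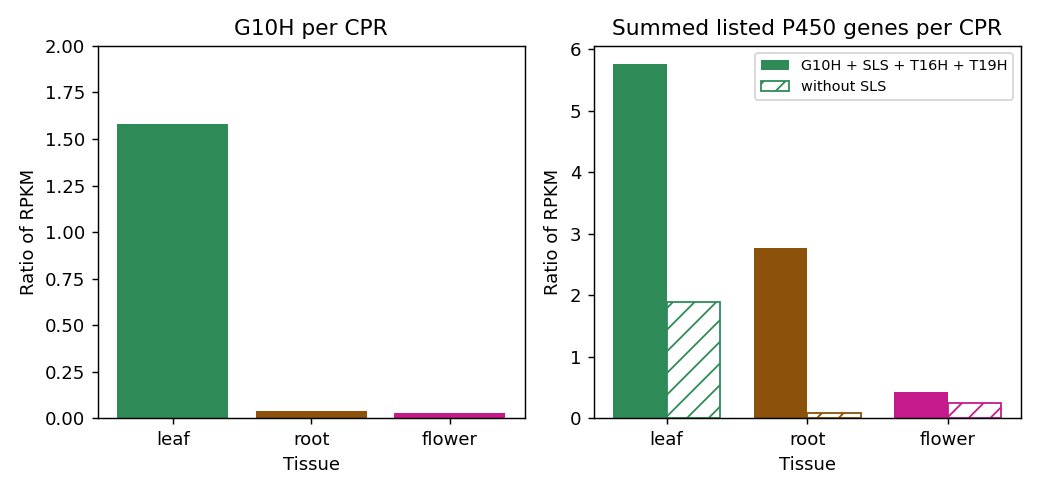
Ratio of RPKM within each tissue, 1 library each, for G10H over CPR (left) and for the sum of G10H, SLS, T16H and T19H over CPR (right, filled bars) or that sum without SLS (right, hatched bars). Leaf is highest in all 3 ratios, at 1.58, 5.76 and 1.89, while the order of root and flower depends on SLS.

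Later genes on the route to secologanin, separated from IS by further steps, had their highest value in root. LAMT (Cr_TC02224), which methylates loganic acid, had 3.37 RPKM in leaf, 64.1 RPKM in root and 1.20 RPKM in flower. SLS had 87.9 RPKM in leaf, 577 RPKM in root and 13.3 RPKM in flower. LAMT stood at 0.0512 RPKM per RPKM of IS in leaf, 7.08 in root and 0.548 in flower. The ratio of SLS to G10H was 2.45 in leaf, 70.8 in root and 6.14 in flower. Both ratios were lowest in leaf, where IS and G10H were highest. As IS and G10H are the denominators, this follows in part from their own high values there.

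A list of 15 other genes of the alkaloid pathway was compared by the same rule of size. In leaf against flower 7 were higher, beside 17.2% of all transcripts compared, and 2 were lower, beside 18.1%. There 5 lay within 2-fold and T19H, under 1 RPKM in both, was not compared. In root against flower, where all 5 of the genes described here were higher, 7 of the list were higher and 7 lower, with 1 within 2-fold. Of all transcripts compared, 26.7% were higher and 18.2% lower there. The 7 lower included T16H and DAT of vindoline synthesis, so this count depends on which genes the list holds. In leaf against root 8 were higher and 6 lower, beside 22.8% and 30.2%. The median log2 fold changes of this list were 0.999 in leaf against flower, -0.39 in root against flower and 1.06 in leaf against root. The list was drawn up with earlier results of these data known.

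**Figure D5:**
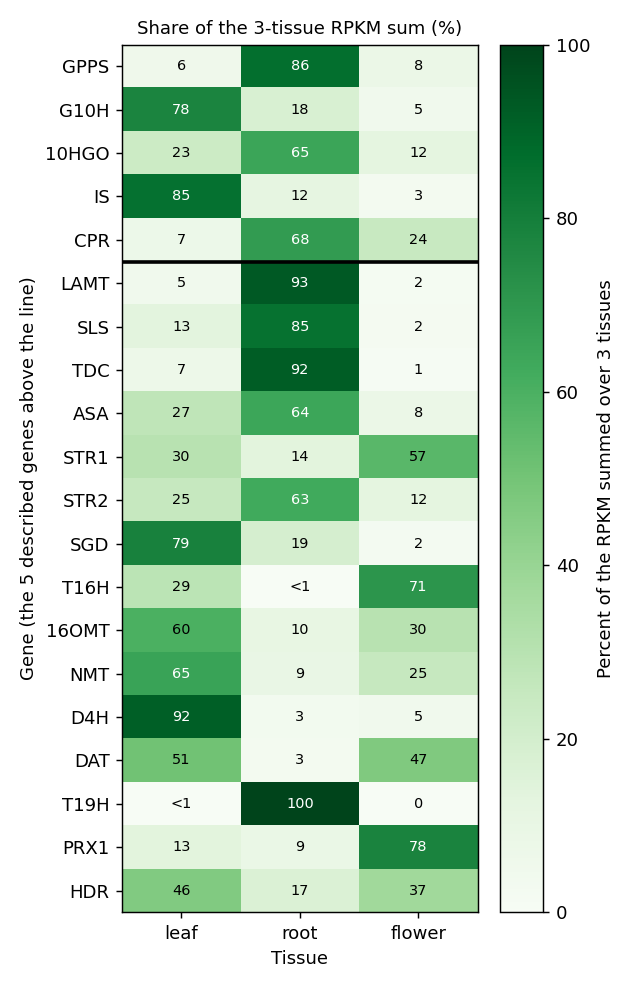
Share of the RPKM summed over leaf, root and flower that each tissue holds, in percent, for the 5 genes (above the line) and the 15 other listed pathway genes (below it), 1 library per tissue. IS and G10H, with 85.4% and 77.7% in leaf, resemble SGD (78.6%). D4H (91.5%), NMT (65.4%), 16OMT (59.9%) and DAT (50.7%) also hold most in leaf, but with flower above root. GPPS (86.2% in root) holds most in root, as do SLS (85.1%), TDC (91.9%), LAMT (93.3%) and T19H (99.9%). ASA (64.2%) and STR2 (62.8%) do so with smaller shares.

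Likeness between genes was measured as the root mean square distance of their log2(RPKM + 1) profiles over the 3 tissues, each centred on its own mean. Within the 5 genes and the 15 listed ones, G10H and IS were nearest to each other, at 0.37. Of the 15 listed genes, SGD (Cr_TC57924), the glucosidase that acts on strictosidine, was nearest to both, at 0.45 from IS and 0.57 from G10H, with D4H (Cr_TC51001), a late vindoline hydroxylase, at 0.87 and 0.99. SGD had 139.8 RPKM in leaf, 33.8 RPKM in root and 4.25 RPKM in flower. D4H had 63.2 RPKM in leaf, 2.39 RPKM in root and 3.45 RPKM in flower, so it differed from G10H and IS in having its lowest value in root.

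Of the 15 listed genes, T19H, at 0.24, and LAMT, at 0.71, were nearest to GPPS. T19H was listed at 0.01 RPKM in leaf, 8.96 RPKM in root and 0 in flower, and its closeness to GPPS is on a scale where 1 RPKM is added. The raw ratio of root to leaf was 15.2 for GPPS and 896 for T19H. Within the 5 genes and the 15 listed ones, the profile nearest to CPR was that of GPPS, at 0.77. Among the 15 listed genes it was followed by T19H, at 0.84, and STR2 (Cr_TC05794), a strictosidine synthase, at 1.14, with 10HGO between them at 1.01. For 10HGO the nearest within the 5 genes and the 15 listed ones were STR2, at 0.32, and ASA (Cr_TC39398), at 0.57. ASA is anthranilate synthase of the tryptophan branch. STR2 had 36.3 RPKM in leaf, 90.8 RPKM in root and 17.5 RPKM in flower, and ASA had 31.2, 73.2 and 9.52 RPKM in the same tissues. Both shared the order root, leaf, flower with 10HGO.

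Over all other transcripts that reached 1 RPKM in some tissue, a profile within 0.25 was found for 6 in the case of IS, 16 for G10H, 209 for CPR, 273 for GPPS and 3966 for 10HGO. These numbers depend on the 1 RPKM added, which flattens low profiles. With 0.1 RPKM added they were 17 for IS, 51 for G10H, 436 for CPR, 1728 for GPPS and 370 for 10HGO, so that IS and G10H kept the lowest numbers but GPPS, not 10HGO, had the highest. These counts describe 3 libraries and say nothing of shared function or control.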

How the data were processed

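An mRNA-Seq library of each tissue (leaf, root, flower) was grouped by the tissue in its label. The authors sequenced them (Illumina), kept high-quality, non-duplicate reads, aligned these to their de novo transcripts in CLC Genomics Workbench with up to 2 mismatches and computed RPKM from unique reads. Processing notes of the submitters name DESeq. The deposited values were taken as RPKM although the column is headed as a base mean, because they have 2 decimals and sums far below the read number of a library. Duplicate removal can lower the values of abundant transcripts.

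Log2 ratios of (RPKM + 1) were computed for all 59220 transcripts. A call needed 2-fold and a larger value of at least 1 RPKM, the lowest at which 2-fold can be reached. The study's negative binomial test needs counts and was not run; no p-value is given. Alternatives were pseudocounts of 0.1 and 10, no minimum, a minimum of 10 RPKM, 4-fold, and scaling to the same total, upper quartile or median ratio. Genes named were the 5 chosen, the listed P450 and vindoline genes, LAMT and SLS, the actin control, and the 2 listed genes nearest in profile to each of the 5. A caption also names TDC for its share. Members and lists were chosen with earlier results of these data known. No genome coordinates or sequences are given, since a RefSeq gene table matched 0 of the 59220 identifiers. The code was tested on simulated data. Python 3.11.15, numpy 2.4.6, pandas 2.3.3 and matplotlib 3.10.9 were used.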

Additional observations from a re-analysis of the deposited data

Results flagged for a closer look

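GPPS and CPR lay below flower in leaf and above it in root. For CPR the log2 fold changes were -1.71 (leaf against flower) and 1.48 (root against flower), both past 2-fold. GPPS stood at -0.49 in leaf against flower, within 2-fold, and at 3.34 in root against flower. With 1 library per tissue the difference between the 2 comparisons was not tested, and both use the same flower library.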

How the results depend on the processing

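No paired analysis was possible because each tissue has 1 library. Counts of the 5 genes called higher or lower were recomputed in each comparison under the 7 alternatives that could move them (dropping the minimum could not), giving 42 values, of which 38 were within 1.5 times the reported count. The exceptions were as follows. In root against flower the 5 higher genes became 2 with a pseudocount of 10 RPKM, 2 with a minimum of 10 RPKM and 1 at 4-fold. That minimum takes IS, 10HGO and G10H out of the comparison. In leaf against flower the 1 lower gene, CPR, became 0 at 4-fold. In leaf against root the 3 lower genes became 2 with a pseudocount of 10 RPKM, with a minimum of 10 RPKM and at 4-fold. That change is at the limit of 1.5 times and was counted as within it. The count of lower genes in root against flower was 0 throughout. Among 45 rescaled log2 fold changes, none changed direction or its side of 2-fold. Another pseudocount cannot turn a direction, but of 30 such values 4 no longer reached 2-fold, each with a pseudocount of 10 RPKM, where a gene under 10 RPKM cannot reach 2-fold: G10H (0.58), 10HGO (0.41) and IS (0.64) in root against flower, and 10HGO (-0.31) in leaf against root. Scaling by the median ratio shifted log2 fold changes by -0.12 in leaf against flower, 0.23 in root against flower and -0.35 in leaf against root, and the upper quartile by -0.08, 0.25 and -0.33. Without SLS, the summed P450 level per RPKM of CPR was 1.89 in leaf, 0.0800 in root and 0.255 in flower, against 5.76, 2.77 and 0.428 with it. With a distance limit of 0.5, the transcripts like a gene numbered 954 for GPPS, 146 for G10H, 8644 for 10HGO, 44 for IS and 976 for CPR, and with a pseudocount of 0.1 RPKM 1728, 51, 370, 17 and 436. The study gives the uniquely mapped reads of each library, but transcript lengths were not used here. The counting error of the values under 10 RPKM was therefore not worked out. The spread between plants was not measured at any level.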
